A study of Homo sapiens with 12 samples.

Results

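The 8 genes described here stood higher in CCRF-CEM cells after each of 3 cytostatic compounds, namely CHRNA6, SERPINB8, CMAHP, CNGA1, KCNRG, ATP10D, RHBDD2 and HHLA2. They are 8 of the 14232 genes that had a probe set annotated to a single gene symbol, and the brightest such probe set by mean level over the 12 arrays stands for each gene. For CNGA1, the probe sets numbered nearest to its own lie on the opposite strand. Whether its probe set reads CNGA1 mRNA was not tested, and the counts and medians of the 8 genes include it. All 8 were chosen by their treated-minus-control differences on these same arrays, so those differences are given as a description without a test. CCRF-CEM is a human T-lymphoblastic leukaemia line, and AB61, tubercidin and actinomycin D were each given for 3 h at a concentration labelled as 5 times the IC50, namely 250 nM for AB61, 550 nM for tubercidin and 1 nM for actinomycin D. Untreated cultures of the same line were the control, and each of the 4 groups held 3 arrays labelled as biological replicates. The labels mention no vehicle, so the effect of a solvent and of a compound cannot be told apart.

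AB61 carries a thienyl group at position 7 of 7-deazaadenosine, and tubercidin is the parent 7-deazaadenosine. Both are analogues of the RNA building block adenosine that cells phosphorylate like the natural nucleoside, whereas actinomycin D binds DNA and blocks the passage of RNA polymerases. The 8 genes do not belong to a common known pathway. CHRNA6, CNGA1 and KCNRG encode or control ion channels, ATP10D encodes a lipid-translocating ATPase, SERPINB8 an inhibitor of proteases and RHBDD2 a protein with a rhomboid domain. HHLA2 encodes a ligand seen by T and NK cells, and CMAHP is the human pseudogene of the enzyme that hydroxylates sialic acid in other mammals.

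Levels are log2 RMA values, a scale on which a difference of 1 is a 2-fold difference in signal after the arrays were given similar distributions, and a change shared by all mRNAs cannot be seen on it. Array medians lay between 6.58 and 6.72, and correlations between arrays between 0.983 and 0.996. The number of arrays limits the precision, with a median SE of a log2 fold change of 0.13 over all genes. Markers of the T lineage fitted the labelled line, with a median over CD3D, CD3E, CD3G, CD2, CD5, CD7, LCK and ZAP70 of 9.97 to 10.29 on the AB61 arrays, 9.93 to 10.32 on the tubercidin arrays, 10.02 to 10.23 on the actinomycin D arrays and 10.08 to 10.26 on the control arrays. Medians of the lists for B cells, myeloid cells and epithelium lay at or below 6.76 on every array, but the keratin gene KRT8 of the epithelial list averaged 9.72, with 9.69 to 10.07 on the AB61 arrays, 9.56 to 9.85 with tubercidin, 9.52 to 9.74 with actinomycin D and 9.68 to 9.82 in control. Without detection calls no gene can be called absent. In limma 0 of the markers of these 4 lists passed an adjusted p of 0.05 in any treatment. Of all genes 0.169% passed after AB61, 0.0913% after tubercidin and 0.119% after actinomycin D, so the markers are not shown to be unchanged. CD3G lay above control on every treated array (lowest 11.12, control highest 11.04) and CD79B below (highest 6.556, control lowest 6.563). CD2 was fully higher after AB61 and tubercidin, and CD3E fully lower after AB61. In bulk RNA a change in the number of cells that carry a transcript and a change in RNA per cell cannot be told apart.

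All 24 combinations of gene and treatment had the 3 treated arrays above the 3 control arrays. The distance between the lowest treated and the highest control array ran from 0.19, for RHBDD2 after tubercidin, to 1.03, for CHRNA6 after actinomycin D. Such full separation with the treated arrays higher was found in 6.42% of all genes after AB61, 7.43% after tubercidin and 7.23% after actinomycin D, and in 2.63% of genes (375 of 14232) after all 3, but the choice of the genes fixes their own count. The log2 fold changes spanned 0.40 to 1.21, or 1.32-fold to 2.31-fold, and 2 of the 24, both of CHRNA6, reached a 2-fold difference. In the median the 8 genes stood at 0.76 after AB61, 0.91 after tubercidin and 0.70 after actinomycin D, beside medians over all genes of 0.04, -0.02 and 0.00. The 3 comparisons share the control arrays. With the arrays centred on 26 ribosomal protein genes, which moved the median of all genes to -0.14, -0.20 and -0.25, all 24 values stayed positive, but RHBDD2 after tubercidin (0.22) and KCNRG after actinomycin D (0.32) then overlapped control.

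Over all genes, in limma with Benjamini-Hochberg adjustment, those that passed 0.05 and were higher made up 0.0913% after AB61, 0.0562% after tubercidin and 0.0632% after actinomycin D. No such count is given for the 8 genes, since they were chosen on these contrasts. With the replicate number as a block over all 12 arrays, which the main fit leaves out, 193 genes passed after AB61 (87 higher and 106 lower) in place of 24 (13 higher and 11 lower). The split by direction depended on the scaling. Centring on ribosomal protein genes gave 0 higher and 14 lower after AB61, 1 higher and 3 lower after tubercidin in place of 8 and 5, and 1 higher and 34 lower after actinomycin D in place of 9 and 8. Repeated quantile normalization gave 22 higher and 12 lower after AB61 and 7 higher and 2 lower after tubercidin, and median centring 2 higher and 1 lower after AB61.

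The numbers of genes past the threshold also rested on single arrays. For AB61 they were 0, 0 and 98 without AB61 replicates 1, 2 and 3 and 9, 0 and 0 without control replicates 1, 2 and 3, and between 2 and 5 without tubercidin replicate 3 or any actinomycin D array. For tubercidin, with 13 genes, they were 4 without tubercidin replicate 1 or 3, 20 without AB61 replicate 3 and 33, 2 and 3 without control replicates 1, 2 and 3. For actinomycin D, with 17 genes, they were 1 without actinomycin D replicate 1 or 2 or control replicate 2 or 3, and 3 or 4 without actinomycin D replicate 3, AB61 replicate 1 or 2, or tubercidin replicate 1 or 3.

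**Figure D1:**
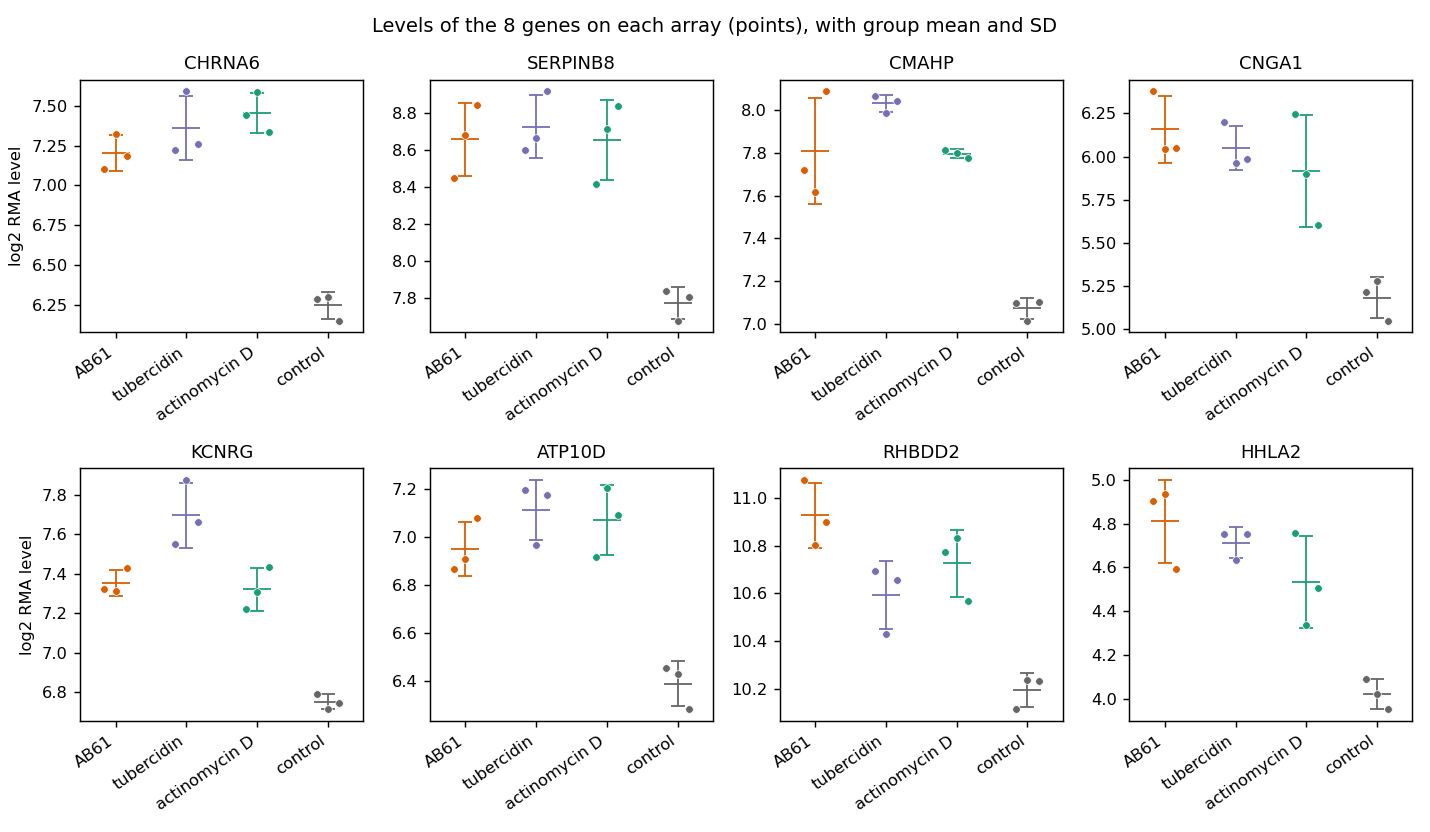
Log2 RMA level (vertical axes, which do not start at 0) of the 8 genes on each of the 12 arrays (points), with the mean (wide bar) and SD (whiskers) of each group of 3 arrays. In all 8 panels the treated arrays lie above the control arrays, and all 3 treated groups overlap one another for SERPINB8, CNGA1, ATP10D and HHLA2, while CHRNA6, CMAHP, KCNRG and RHBDD2 have at least 1 fully separated pair of treatments.

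CHRNA6 had the largest difference of the 8 genes after tubercidin and actinomycin D. It encodes the alpha6 subunit of nicotinic acetylcholine receptors, ligand-gated cation channels known in the brain mainly from dopamine neurons. Its level was 7.10, 7.32 and 7.19 on the AB61 arrays, 7.23, 7.59 and 7.26 on the tubercidin arrays and 7.44, 7.59 and 7.34 on the actinomycin D arrays, against 6.29, 6.30 and 6.15 on the control arrays. The lowest AB61 array lay 0.80 above the highest control array, and the other treatments lay further away. The log2 fold change was 0.96 after AB61, 1.11 after tubercidin and 1.21 after actinomycin D (SE 0.12 each), or 1.94-fold, 2.17-fold and 2.31-fold. The actinomycin D arrays all lay above the AB61 arrays, by a mean of 0.25, with an interval for AB61 minus actinomycin D of -0.51 to 0.01 (95%, adjusted p = 1.00 in limma).

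CNGA1 encodes the alpha subunit of the cGMP-gated cation channel of rod photoreceptors. The probe set used for it stood at 6.38, 6.04 and 6.05 on the AB61 arrays, 6.20, 5.96 and 5.99 on the tubercidin arrays and 6.25, 5.90 and 5.60 on the actinomycin D arrays, against 5.22, 5.28 and 5.05 on the control arrays. Actinomycin D replicate 3 was the lowest treated array and still lay 0.32 above the highest control array. In all 3 treated groups replicate 1 was the highest array. The log2 fold changes were 0.97, 0.87 and 0.73 after AB61, tubercidin and actinomycin D (SE 0.15 each).

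A second probe set carries the symbol CNGA1 alone, and its groups overlapped. It read 2.24, 2.84 and 2.82 on the AB61 arrays, 2.25, 2.83 and 2.65 on the tubercidin arrays and 2.12, 2.55 and 2.33 on the actinomycin D arrays, against 2.80, 2.53 and 2.35 on the control arrays, readings so low that they may be background, where a change could not be seen. Over all 22011 probe sets its log2 fold change was 0.07 after AB61 (95% interval -0.37 to 0.51, adjusted p = 0.917 in limma), 0.02 after tubercidin (-0.43 to 0.46, 0.997) and -0.22 after actinomycin D (-0.67 to 0.22, 0.892). With the mean of both probe sets in place of the brighter one, CNGA1 stood at 0.52, 0.44 and 0.25 above control, values to which the same limit applies.

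Both CNGA1 probe sets were also placed by their numbers. Among single-symbol probe sets whose gene has a strand in the RefSeq table, 99.3% (11360 of 11440) lay on the strand of most of their 10 nearest numbered neighbours. CNGA1 is on the minus strand. The brighter CNGA1 probe set, the one that was higher after treatment, had 10 of its 10 nearest neighbours on the plus strand of chromosome 4. The dimmer one had 10 of 10 on the minus strand. For HHLA2, KCNRG and SERPINB8 all 10 neighbours were on the strand of the gene, and for ATP10D 9 of 10. The strand table used held no entry for CMAHP, RHBDD2 and CHRNA6, and for CHRNA6 0 of the 10 nearest probe sets with a strand lay on its chromosome (5 on plus and 5 on minus), so its order was not read. The values given here for CNGA1 are therefore those of a probe set annotated to the gene whose neighbours in number are on the opposite strand, and whether it reads CNGA1 mRNA was not tested.

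**Figure D2:**
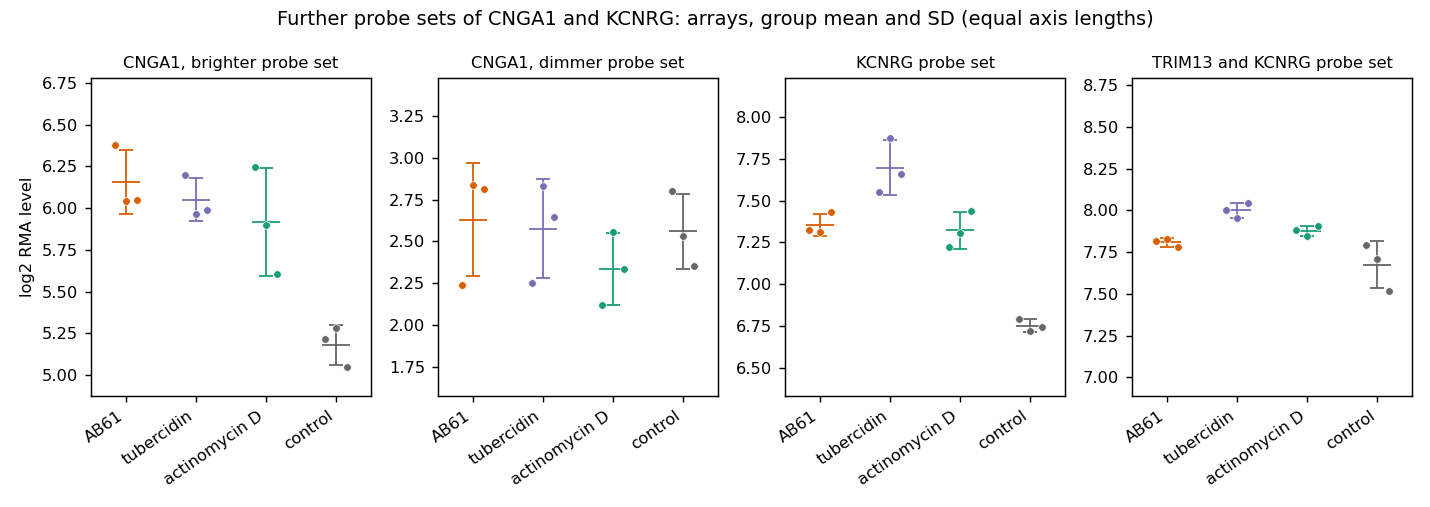
Log2 RMA level (vertical axes of equal length that do not start at 0) of both CNGA1 probe sets, the KCNRG probe set and the probe set annotated to both TRIM13 and KCNRG, on each array (points) with the mean and SD of each group of 3. The brighter CNGA1 probe set and the KCNRG probe set are higher on every treated array, the dimmer CNGA1 probe set overlaps between all groups, and the shared TRIM13 and KCNRG probe set shows smaller differences.

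KCNRG encodes a soluble protein resembling the assembly domain of voltage-gated potassium channels, which binds such channels and lowers their current. Its level was 7.32, 7.31 and 7.43 on the AB61 arrays, 7.55, 7.88 and 7.66 on the tubercidin arrays and 7.22, 7.31 and 7.44 on the actinomycin D arrays, against 6.79, 6.72 and 6.75 on the control arrays. The 3 tubercidin arrays lay above all arrays of the other treatments. The log2 fold change was 0.60 after AB61, 0.94 after tubercidin and 0.57 after actinomycin D (SE 0.10 each), or 1.52-fold, 1.93-fold and 1.48-fold. KCNRG starts within TRIM13, the gene of a ubiquitin ligase, and a probe set annotated to both genes read 7.78 to 7.83 with AB61, 7.95 to 8.04 with tubercidin and 7.84 to 7.91 with actinomycin D, against 7.52 to 7.79 in control. Its log2 fold changes of 0.13, 0.33 and 0.20 did not pass (adjusted p = 0.622, 0.349 and 0.571 in limma over all probe sets), and AB61 replicate 3 lay within the control range.

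SERPINB8 belongs to the clade B serpins, protease inhibitors that stay inside the cell, and is known to inhibit furin in biochemical assays. Its level was 8.45, 8.68 and 8.85 on the AB61 arrays, 8.60, 8.67 and 8.92 on the tubercidin arrays and 8.42, 8.71 and 8.84 on the actinomycin D arrays, against 7.84, 7.68 and 7.80 on the control arrays. The treated groups overlapped each other fully. In each of them replicate 3 was the highest array and replicate 1 the lowest, with SDs of 0.20, 0.17 and 0.22 against 0.08 in control. The log2 fold changes of 0.89, 0.96 and 0.88 (SE 0.14 each) were the most even of the 8 genes across the treatments. The 250 bases before its RefSeq start (GRCh38.p14, chr18:63969831-63970080, plus strand) overlap only a non-coding RNA gene and are shown since they overlap no other protein-coding gene. Capitals mark a TATAAA on either strand and a CCAAT, and a link between sequence and change was not tested.
SERPINB8: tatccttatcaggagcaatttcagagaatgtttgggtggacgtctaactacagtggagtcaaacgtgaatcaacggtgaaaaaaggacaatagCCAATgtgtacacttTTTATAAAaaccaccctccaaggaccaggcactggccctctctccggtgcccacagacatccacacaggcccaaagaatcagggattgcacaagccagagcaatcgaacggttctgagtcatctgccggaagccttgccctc

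RHBDD2, a rhomboid-domain protein of the Golgi membrane, had its highest mean with AB61. It read 11.07, 10.80 and 10.90 on the AB61 arrays, 10.69, 10.43 and 10.66 on the tubercidin arrays and 10.77, 10.83 and 10.57 on the actinomycin D arrays, against 10.11, 10.24 and 10.23 on the control arrays. The AB61 arrays lay above all tubercidin arrays and overlapped those of actinomycin D. The log2 fold change was 0.73 after AB61, 0.40 after tubercidin and 0.53 after actinomycin D (SE 0.11 each), and the tubercidin value was the smallest of all 24.

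ATP10D encodes a P4-ATPase, one of the flippases that move lipids to the inner face of membranes, and acts on glucosylceramide. Its level was 6.87, 6.91 and 7.08 on the AB61 arrays, 7.20, 6.97 and 7.18 on the tubercidin arrays and 6.92, 7.20 and 7.09 on the actinomycin D arrays, against 6.46, 6.43 and 6.28 on the control arrays. The 3 treatments overlapped. The log2 fold changes were 0.56, 0.72 and 0.68 (SE 0.11 each). The 250 bases before its RefSeq start (GRCh38.p14, chr4:47485025-47485274, plus strand), shown for the same reason as those of SERPINB8, hold overlapping copies of GGGCGG and the reverse complement of CCAAT, both in capitals.
ATP10D: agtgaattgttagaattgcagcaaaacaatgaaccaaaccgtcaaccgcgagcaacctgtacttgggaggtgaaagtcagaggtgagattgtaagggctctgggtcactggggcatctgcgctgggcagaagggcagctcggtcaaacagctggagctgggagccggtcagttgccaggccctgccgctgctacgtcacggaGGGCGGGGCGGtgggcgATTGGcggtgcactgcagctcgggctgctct

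HHLA2 is a B7 family gene whose protein binds TMIGD2 and KIR3DL3 on T and NK cells. It read 4.91, 4.93 and 4.59 on the AB61 arrays, 4.75, 4.63 and 4.75 on the tubercidin arrays and 4.76, 4.34 and 4.51 on the actinomycin D arrays, against 4.09, 4.02 and 3.95 on the control arrays. Its log2 fold changes were 0.79, 0.69 and 0.51 (SE 0.12 each). All treated arrays lay above control, but with no detection calls the share of these low readings that is background is unknown. The sequence upstream of its gene start (GRCh38.p14, chr3:108296298-108296547, plus strand) held none of the motifs searched. Windows at its later starts, which lie within the gene, held a CCAAT box and are not shown. The sequence at the gene start is shown as the third of the 3 members whose window there lies clear of other protein-coding genes.
HHLA2: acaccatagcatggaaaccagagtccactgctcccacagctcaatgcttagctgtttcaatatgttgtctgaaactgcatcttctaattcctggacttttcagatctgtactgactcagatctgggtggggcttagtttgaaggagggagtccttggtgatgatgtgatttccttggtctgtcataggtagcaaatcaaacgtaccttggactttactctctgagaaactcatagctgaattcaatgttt

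The motifs searched in the 250 bases before each start, on both strands, were the TATA box written as TATAAA, the CCAAT box, the GC box written as GGGCGG, the cAMP response element written as TGACGTCA and the E box written as CACGTG. The TATA box can overlap its own reverse complement and the GC box a further copy of itself. Of 35116 RefSeq starts, 10.7% held the TATA box, 32.0% the CCAAT box, 42.6% the GC box, 1.65% the cAMP response element and 6.34% the E box. Of the 8 genes 5 had an entry in the table, 8 starts in all. No motif was found before all 5 gene starts. At the gene starts only SERPINB8 of the 5 had a TATA box. The CCAAT box was found there before SERPINB8, ATP10D, KCNRG and CNGA1, the GC box before ATP10D and CNGA1, and the other motifs before none. GC content at the gene starts ran from 37.2% for KCNRG over 43.2% for HHLA2, 49.2% for SERPINB8 and 60.0% for ATP10D to 75.2% for CNGA1, beside a median of 58.0% over all starts. Gene length over the 8 genes ran from 5.48 kb for KCNRG to 108 kb for ATP10D, with a median of 53.5 kb against 27.9 kb over all genes and quartiles of 10.1 and 71.8 kb.

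CMAHP, transcribed in humans without a functional enzyme, had tight groups except with AB61. It read 7.72, 7.62 and 8.09 on the AB61 arrays, 8.06, 7.99 and 8.04 on the tubercidin arrays and 7.81, 7.80 and 7.78 on the actinomycin D arrays, against 7.10, 7.01 and 7.10 on the control arrays. The SD was 0.25 with AB61, 0.04 with tubercidin, 0.02 with actinomycin D and 0.05 in control. All tubercidin arrays lay above all actinomycin D arrays, and AB61 replicate 3 reached the tubercidin range. The log2 fold changes were 0.74, 0.96 and 0.72 (SE 0.11 each), and without AB61 replicate 3 the AB61 value was 0.60.

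**Figure D3:**
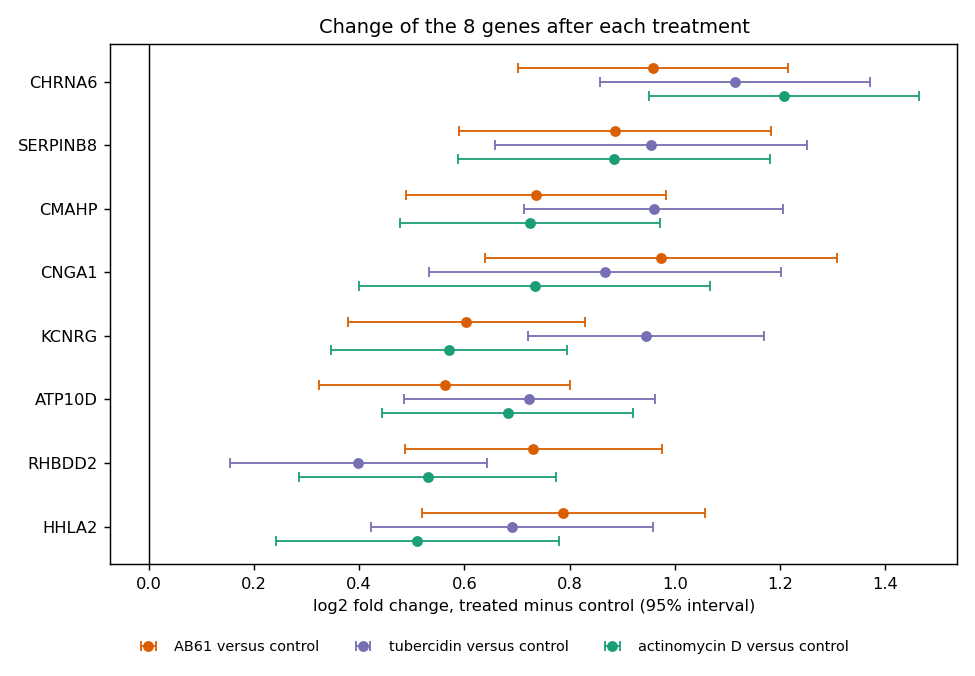
Log2 fold change of each gene (horizontal axis), treated minus control, with 95% intervals from the limma fit of all 12 arrays, for AB61, tubercidin and actinomycin D. All 24 points lie between 0.40 and 1.21, CHRNA6 has the highest and RHBDD2 after tubercidin the lowest. The genes were chosen by these differences, so the intervals describe precision only and are not a test against 0.

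The treatments were then set against each other, at matched multiples of the IC50 but different concentrations. Over 24 comparisons (8 genes and 3 pairs of treatments) none passed in limma with adjustment over all genes (adjusted p from 0.793 to 1.00), beside 0% of all 14232 genes in each pair. Their treated arrays were among the values that chose the genes, so these tests are not independent of the choice. At an unadjusted p below 0.05, there were 4 of the 24, beside 5.07% of all genes for AB61 against tubercidin, 1.83% for AB61 against actinomycin D and 1.29% for tubercidin against actinomycin D. Fully separated arrays were seen in 5 of the 24, beside 6.02%, 4.41% and 6.56% of all genes.

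Among the 2 deazaadenosines, KCNRG was lower with AB61 than with tubercidin by 0.34 (AB61 minus tubercidin -0.34, 95% interval -0.57 to -0.12, unadjusted p = 0.00600, adjusted p = 0.793 in limma), with the arrays fully separated. RHBDD2 went the other way, with AB61 above tubercidin by 0.33 (0.09 to 0.58, unadjusted p = 0.0115, adjusted p = 0.793 in limma), again with no overlap of arrays. For the other 6 genes the difference lay between -0.22 for CMAHP and 0.11 for CNGA1, and each interval held 0. These intervals reached from -0.47 to 0.44, so they leave room for differences of that size between the thienyl compound and its parent.

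KCNRG was also higher with tubercidin than with actinomycin D, by 0.37 (0.15 to 0.60, unadjusted p = 0.00323, adjusted p = 1.00 in limma), and AB61 and actinomycin D differed by 0.03 (-0.19 to 0.26). Its order was thus tubercidin, AB61, actinomycin D and control, the middle pair overlapping. HHLA2 stood 0.28 higher with AB61 than with actinomycin D (0.01 to 0.55, unadjusted p = 0.0442, adjusted p = 1.00 in limma), although the arrays overlapped, and CMAHP stood 0.24 higher with tubercidin than with actinomycin D (-0.01 to 0.48) with the arrays separated. SERPINB8 had the smallest difference of all, 0.00 between AB61 and actinomycin D, with an interval from -0.29 to 0.30. In the order of group means AB61 came first for CNGA1, RHBDD2 and HHLA2, tubercidin for SERPINB8, CMAHP, KCNRG and ATP10D, and actinomycin D for CHRNA6.

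**Figure D4:**
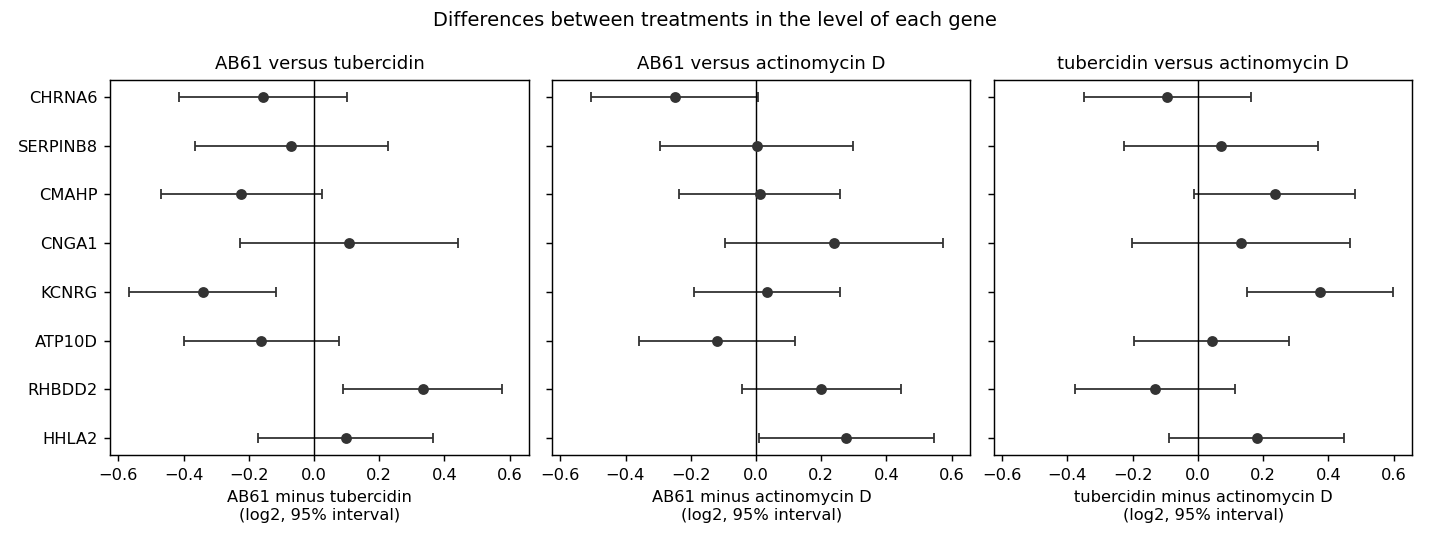
Difference in log2 level between treatments (horizontal axes) for the 8 genes, with 95% intervals from the limma fit, for AB61 minus tubercidin, AB61 minus actinomycin D and tubercidin minus actinomycin D. The intervals that leave out 0 are 4, those of KCNRG in both pairs with tubercidin, of RHBDD2 for AB61 and tubercidin and of HHLA2 for AB61 and actinomycin D, and none passed after adjustment.

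The nearest measured gene on either side of each of the 8 on its chromosome, in RefSeq order, gave 16 neighbours and 48 values. Of these 0 passed in limma against control (lowest adjusted p = 0.212), beside 0.169% of all genes after AB61, 0.0913% after tubercidin and 0.119% after actinomycin D in either direction. At such shares 48 values would rarely hold a pass, so the 0 says little about the neighbourhoods. The values ran from -0.44 to 0.37. At CHRNA6 the beta3 nicotinic subunit gene CHRNB3 stood at 0.21 after AB61, -0.05 after tubercidin and -0.01 after actinomycin D, and THAP1, a zinc finger gene on the other side, at -0.42, -0.25 and -0.44 (SE 0.15). At SERPINB8 the neighbouring serpin gene SERPINB10 stood at 0.12, -0.06 and 0.14. The genes ATP10D and CNGA1 are close to each other on chromosome 4. COMMD8, on the far side of ATP10D, stood at -0.11, 0.37 and 0.15 (SE 0.22), its tubercidin value being the highest of the 48. CORIN, the membrane protease gene that follows ATP10D, stood at 0.01, -0.05 and 0.09. NIPAL1, a magnesium transporter gene on the far side of CNGA1, stood at -0.01, -0.06 and -0.03. NFXL1, a zinc finger gene between CORIN and CNGA1, stood at 0.28, 0.32 and 0.33 (SE 0.14; adjusted p = 0.446, 0.489 and 0.453 in limma).

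Around KCNRG, SPRYD7 stood at -0.32, -0.20 and -0.31 (SE 0.10) and the long non-coding RNA gene DLEU1 at -0.27, 0.09 and -0.01 after AB61, tubercidin and actinomycin D. TRIM13 and DLEU2, which overlap the start of KCNRG, were not among these neighbours. CMAHP was flanked by RIPOR2, a regulator of RhoA, at 0.23, 0.21 and 0.14 and by CARMIL1, a regulator of actin capping, at 0.29, 0.25 and 0.19. These were the only neighbours with positive values on both sides after each treatment, and none passed (adjusted p from 0.390 to 0.944 in limma). RHBDD2 lay between the chemokine gene CCL24 (0.19, -0.21 and -0.24) and POR, the reductase of cytochrome P450 enzymes (-0.03, -0.12 and 0.02). HHLA2 lay between the cilium gene IFT57 (-0.36, -0.09 and -0.29) and CIP2A, which encodes an inhibitor of the phosphatase PP2A (0.12, 0.24 and 0.17).

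**Figure D5:**
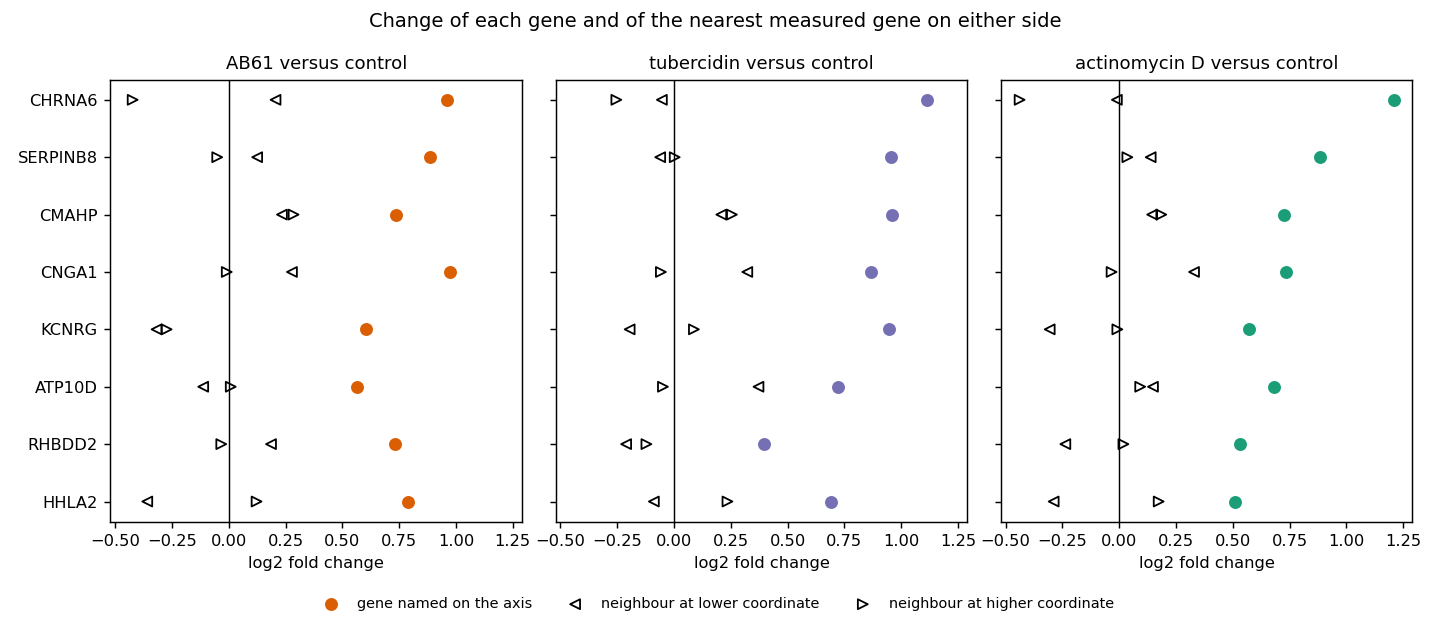
Log2 fold change against control (horizontal axes) of each of the 8 genes (filled circles) and of the nearest measured gene at the lower and higher coordinate (open triangles), after AB61, tubercidin and actinomycin D. Neighbours lie between -0.44 and 0.37, and in every row of each panel the filled circle lies to the right of both triangles.

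Relatives of the 8 genes by family or pathway were examined in 8 lists of 97 genes, of which 79 were measured. None passed in limma after any treatment, beside the shares in either direction just given. At an unadjusted p below 0.05 there were 7, 5 and 4 of the 79 after AB61, tubercidin and actinomycin D, beside 12.1%, 8.8% and 9.39% of all genes. Their median log2 fold change was 0.05, -0.05 and 0.00. Without AB61 replicate 3 the count after AB61 was 1, the P4-ATPase gene ATP11B. By list, 11 nicotinic receptor subunits other than CHRNA6 had medians of 0.17, 0.02 and 0.06, and the largest mean absolute changes over the 3 treatments were those of CHRNA5 (0.34, 0.37 and 0.39, SE 0.13) and CHRNA3 (0.33, 0.25 and 0.33, SE 0.12), subunits of ganglionic receptors (adjusted p from 0.294 to 0.610 in limma). Among 8 other clade B serpins the values lay between -0.16 and 0.29, with SERPINB12 at 0.21, -0.16 and -0.05.

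Of the channels, 7 cyclic nucleotide-gated and HCN genes had medians of 0.04, -0.07 and -0.05, with CNGA3, the cone photoreceptor counterpart of CNGA1, at -0.05, -0.34 and -0.29 (SE 0.14). Kv1 potassium channel genes, of the class KCNRG binds, had medians of 0.07, -0.10 and -0.06 over 7 genes, and KCNA3, the main Kv1 channel of T cells, stood at -0.47, -0.60 and -0.49 (SE 0.27; adjusted p from 0.537 to 0.684 in limma). The 11 P4-ATPases and their CDC50 subunits had medians of -0.04, -0.01 and -0.01, with ATP11B at -0.45, -0.24 and -0.30 (SE 0.16). The 11 measured genes of the rhomboid family had medians of 0.07, -0.03 and -0.01, with PARL, the mitochondrial rhomboid protease gene, at 0.09, 0.27 and 0.10. For 12 genes of the B7 and CD28 families the medians were 0.03, -0.14 and -0.09, and the costimulatory receptor gene ICOS stood at -0.38, -0.44 and -0.30 (SE 0.24). In sialic acid metabolism, with medians of 0.03, -0.02 and 0.06 over 12 genes, the sialyltransferase gene ST6GAL1 stood at -0.49, -0.43 and -0.56 (SE 0.19) and the O-acetyltransferase gene CASD1 at 0.35, 0.43 and 0.34 (SE 0.22).

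Likeness between genes was measured as the mean absolute difference, over the 12 arrays, of levels centred on each gene's own mean. Among the 28 pairs of the 8 genes the closest were CMAHP and KCNRG (0.112) and KCNRG and ATP10D (0.119), and the farthest CHRNA6 and RHBDD2 (0.303). Over all 14232 genes the closest to ATP10D were KIAA0753, a centriole gene (0.0613), and ERCC4, which encodes a DNA repair endonuclease subunit (0.0696). KIAA0753 was also closest to KCNRG (0.0997). The zinc finger gene ZNF583 was among the 2 closest for CHRNA6, SERPINB8 and CMAHP (0.186, 0.110 and 0.102), the complement receptor gene C3AR1 was closest to SERPINB8 (0.103), and SERPINB8 itself closest to CHRNA6 (0.181). SPMIP4 was closest to both RHBDD2 (0.0820) and HHLA2 (0.118), followed by the transcription factor gene RUNX2 for RHBDD2 (0.0992) and the decapping cofactor gene DCP1B for HHLA2 (0.122). The brighter CNGA1 probe set had KBTBD12 (0.127) and HCG8 (0.143) as its closest. These values describe the same 12 arrays that chose the genes.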

How the data were processed

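Total RNA of the 12 CCRF-CEM cultures was hybridised to Affymetrix exon arrays summarised per transcript cluster, called probe sets here. The deposited values are log2 RMA levels that the authors made with the oligo package and tested with limma, per the submitters' processing notes, which give no versions. The authors' tables also hold p-values, which were not used, and their deposited log2 fold changes equal the differences of group means. Of 22011 probe sets, 14432 carry 1 symbol in the platform annotation, 2408 several and 5171 are not listed there. The brightest per gene left 14232 genes (197 had several), of which 14205 matched RefSeq by gene ID.

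All genes were fitted in limma 3.58.1 (R 4.3.3) over the 4 groups of 3 arrays, with Benjamini-Hochberg adjustment over all genes and a threshold of 0.05. The procedure was also run on simulated data with independent noise on each array. That run cannot show how the procedure behaves when arrays share a replicate effect. The main fit used no pairing, and the replicate number entered only as a block in an alternative fit. Deviations of same-numbered AB61 and control arrays from their group means correlated at 0.158, 0.355 and 0.268. Any pairing of this kind comes from the data and not from the labels. For tubercidin and control the correlations were 0.0858, 0.241 and 0.421 and for actinomycin D and control 0.204, 0.0464 and 0.305. Between treatments they were 0.195, -0.194 and 0.224 for AB61 and tubercidin and 0.596, -0.0556 and 0.498 for AB61 and actinomycin D. For tubercidin and actinomycin D they were 0.226, 0.0393 and 0.406. Genes named beside the 8 are the 2 most alike per gene, the nearest measured gene on each side, and the 1 or 2 with the largest mean absolute change per list of relatives. The 8 genes and all lists were chosen with earlier results of these data known. Promoter sequences and gene positions are from RefSeq (GRCh38.p14).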

Additional observations from a re-analysis of the deposited data

How the results depend on the processing

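Of 477 alternative values of the 8 genes against control, 451 moved by less than 1 SD, 26 by more and 0 changed sign (range 0.22 to 1.27). Many of the 477 could not move. Settings that alter only the test, or leave out an array of another group, keep the same difference of means. Of the 26, 23 came from centring on ribosomal protein genes and 3 from the mean of all probe sets. The median of the 8 genes after AB61 (0.76) was 0.73 with median-centred arrays, 0.59 with centring on ribosomal protein genes, 0.74 without the dimmest 25% of genes, 0.73 with the mean of all probe sets and 0.75 to 0.81 with 1 array left out. After tubercidin (0.91) it was 0.73 with ribosomal centring, 0.94 without the dimmest 25%, 0.83 with the mean of probe sets and 0.87 to 0.92 with 1 array left out, and after actinomycin D (0.70) it was 0.45, 0.72, 0.63 and 0.65 to 0.73. Removing them dropped HHLA2, leaving 7 genes.

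The number of genes past the threshold after AB61 (24) was 3 with median centring, 14 with ribosomal centring, 49 without the dimmest 25%, 14 with trend and robust eBayes, 0 from the arrays of both groups alone, 193 with the replicate block and 0 to 98 with 1 array left out. After tubercidin (13) it was 6, 4 and 22 for the same first 3 settings, 1 from both groups alone, 116 with the replicate block and 2 to 33 with 1 array left out. After actinomycin D (17) it was 2 with median centring, 7 with repeated quantile normalization, 35 with ribosomal centring, 1 from both groups alone, 130 with the replicate block and 1 to 25 with 1 array left out. The cause was not tested. For relatives the count after AB61 was 0 to 1 with 1 array left out. Over all genes, the replicate block gave 1 gene between tubercidin and actinomycin D, higher with tubercidin. 

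Between treatments, 16 of 477 values of the 8 genes changed sign and 0 passed the threshold (lowest adjusted p = 0.103 in limma). Many of these 477 differences likewise could not move. HHLA2 for AB61 minus tubercidin was -0.0191 with repeated quantile normalization. For AB61 minus actinomycin D, median centring gave -0.0221 for SERPINB8 and -0.0129 for CMAHP. With 1 array left out, AB61 minus actinomycin D ran from -0.129 to 0.107 for CMAHP, -0.0172 to 0.0911 for KCNRG and -0.118 to 0.107 for SERPINB8. AB61 minus tubercidin ran from -0.004 to 0.181 for CNGA1 and -0.163 to 0.035 for SERPINB8. Tubercidin minus actinomycin D ran from -0.0353 to 0.114 for ATP10D, -0.0233 to 0.298 for CNGA1 and -0.0485 to 0.164 for SERPINB8. No detection calls were used, so the signal over background is unknown for every probe set.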
